A study of Mus musculus with 9 samples.

Results

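Oligodendrocytes wrap axons of the central nervous system in myelin, and 30 genes of this lineage, 1 of them Padi2, were followed in RNA of hippocampal synaptoneurosomes, a preparation in which synaptic endings that reseal after tissue is broken up are concentrated. Padi2 was selected on measured values: it was picked for its higher level after AM6545 in these same 9 samples. The other 29 genes were chosen by their known expression in oligodendrocytes or their precursors, with earlier results of these data in view. All 30 symbols were found, each in 1 of the 22255 rows of the table, and all 30 passed the filter on low counts that left 14512 genes. All samples came from Fmr1 KO mice on a C57Bl/6J background, a model of fragile X syndrome in which every animal lacks the intact gene for FMRP. In 4 of them (letters A, B, C and E in the titles) the mice had received sub-chronic AM6545, which blocks CB1 cannabinoid receptors and enters the brain poorly, and in 5 (letters A to E) vehicle. Age, sex, dose and length of treatment are not given in the sources used here, and wild-type mice are not analysed here. Nothing in the labels says whether each sample came from a separate animal, so the p-values measure the spread between these samples, which may be technical.

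Myelin is a stack of oligodendrocyte membrane held together by basic and membrane-spanning proteins and rich in galactolipids and cholesterol. Precursor cells carrying PDGFRA and NG2 mature under the transcription factors OLIG2, SOX10 and MYRF into cells that make these components. Mbp and Mobp mRNAs are known to travel along the processes of the cell to the sites where myelin is assembled, whereas mRNAs for transcription factors are translated near the nucleus. Padi2 encodes peptidylarginine deiminase 2, which converts arginine in proteins to citrulline, and myelin basic protein, the product of Mbp, is one of its substrates. Padi2 is known to be expressed in oligodendrocytes and in other glia.

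To show how the start region of Padi2 compares with those of myelin genes, 3 windows of 300 bases are given, each from 250 bases before to 50 bases after the start of a transcript. They come from RefSeq on build GRCm38.p6 and read 5′ to 3′ on the strand of the gene: chr4:140906110-140906409 (plus strand) for Padi2, chr17:37023349-37023648 (minus strand) for Mog and chr9:120149492-120149791 (plus strand) for Mobp. Capitals mark matches on either strand to ACAAAG, the core bound by SOX proteins, or to the MYRF motif CTGGNAC.

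Padi2: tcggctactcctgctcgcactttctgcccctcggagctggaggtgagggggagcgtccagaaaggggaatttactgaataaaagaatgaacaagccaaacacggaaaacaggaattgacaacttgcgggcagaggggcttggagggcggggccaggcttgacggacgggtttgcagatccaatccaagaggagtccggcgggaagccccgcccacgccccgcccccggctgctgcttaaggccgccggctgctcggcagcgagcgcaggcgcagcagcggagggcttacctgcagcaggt
Mog: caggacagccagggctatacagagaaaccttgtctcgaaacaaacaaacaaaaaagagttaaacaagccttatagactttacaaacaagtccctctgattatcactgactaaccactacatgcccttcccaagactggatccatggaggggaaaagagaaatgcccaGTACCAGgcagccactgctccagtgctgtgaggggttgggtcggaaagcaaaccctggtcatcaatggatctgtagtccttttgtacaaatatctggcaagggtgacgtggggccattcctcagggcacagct
Mobp: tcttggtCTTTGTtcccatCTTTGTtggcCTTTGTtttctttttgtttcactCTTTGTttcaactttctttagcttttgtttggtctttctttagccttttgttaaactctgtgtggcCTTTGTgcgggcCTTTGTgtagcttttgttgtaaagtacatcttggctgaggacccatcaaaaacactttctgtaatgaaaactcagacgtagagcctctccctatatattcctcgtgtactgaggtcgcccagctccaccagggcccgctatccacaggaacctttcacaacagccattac

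The Padi2 window held 22 CG dinucleotides, the Mog window 3 and the Mobp window 5, against a median of 7 over all 32851 promoter windows of the table. It had no match to either motif, while the Mog window had 1 match to CTGGNAC and the Mobp window 6 to ACAAAG. The window of the myelin gene Mal, not printed, also had no match to either, with 8 CG dinucleotides. Of the 30 genes, 21 had at least 1 window in the table, 27 windows in all. A match to ACAAAG was found in 8 of the 27, from 6 genes, and in 18.7% of all windows. A match to CTGGNAC was found in 8 of the 27, from 6 genes, and in 19.3% of all windows. A match describes the letters of the window and not binding of a factor.

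Total counts ran from 17628922 to 27263393 per sample. Levels are given as CPM, the usual depth-corrected count, with library sizes scaled by the TMM method. Fmr1 itself was counted at 9.45 to 11.1 CPM in AM6545 samples and 10.3 to 13.3 CPM in vehicle samples; since both groups are knockouts, this does not check the genotype. The 30 genes together held 1.40% to 1.93% of the counts in AM6545 samples and 1.14% to 2.29% in vehicle samples, so oligodendrocyte RNA was present in every synaptoneurosome sample. Defining genes of other cell types were present as well: summed over 12 neuronal genes the level was 8779 to 9598 CPM in AM6545 samples and 7652 to 10194 CPM in vehicle samples, and over 12 astrocyte genes 4994 to 5214 and 3978 to 5999 CPM. In bulk RNA, fewer cells of a type and less RNA per cell cannot be told apart.

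Padi2 (ENSMUSG00000028927.7) was at 44.1, 47.8, 42.1 and 46.8 CPM in AM6545 samples A, B, C and E. In vehicle samples A to E it was at 30.7, 33.8, 30.9, 38.0 and 37.0 CPM. The lowest treated sample lay above the highest vehicle sample, so the groups did not overlap; of all genes tested, 1.45% had groups that did not overlap. The mean was 45.2 ± 2.60 CPM after AM6545 (SD, n = 4) and 34.1 ± 3.38 CPM after vehicle (SD, n = 5). The log2 fold change was 0.41 (SE 0.10). Because Padi2 was picked for this difference, the values are a description and carry no test. In GENCODE M21 the gene overlaps Gm26226 and Gm13031, neither of which is a row of the deposited table. Its relatives Padi1 and Padi3 had 0 counts in every sample, which allows at most 0.110 to 0.170 CPM by counting error, and Padi4 and Padi6 reached 1 and 2 counts.

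None of the other 29 genes separated the groups. Of these, 15 were higher and 14 lower in AM6545 samples, with log2 fold changes from -0.36 to 0.19 and a median of 0.01, against a median of -0.01 over all genes tested. By edgeR's quasi-likelihood test 0 of the 29 passed an adjusted p of 0.05, and 0% of the 14512 genes did; the smallest adjusted p was 0.653 in both cases. At an unadjusted p under 0.05 there were 0 of 29 higher (3.03% of all genes) and 1 lower (4.18% of all genes), which was Mal. By DESeq2, too, 0 of all genes passed the adjusted threshold, with 1160 at an unadjusted p under 0.05, against 1047 by edgeR. Since this contrast chose Padi2, nothing more is read from these counts.

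**Figure D1:**
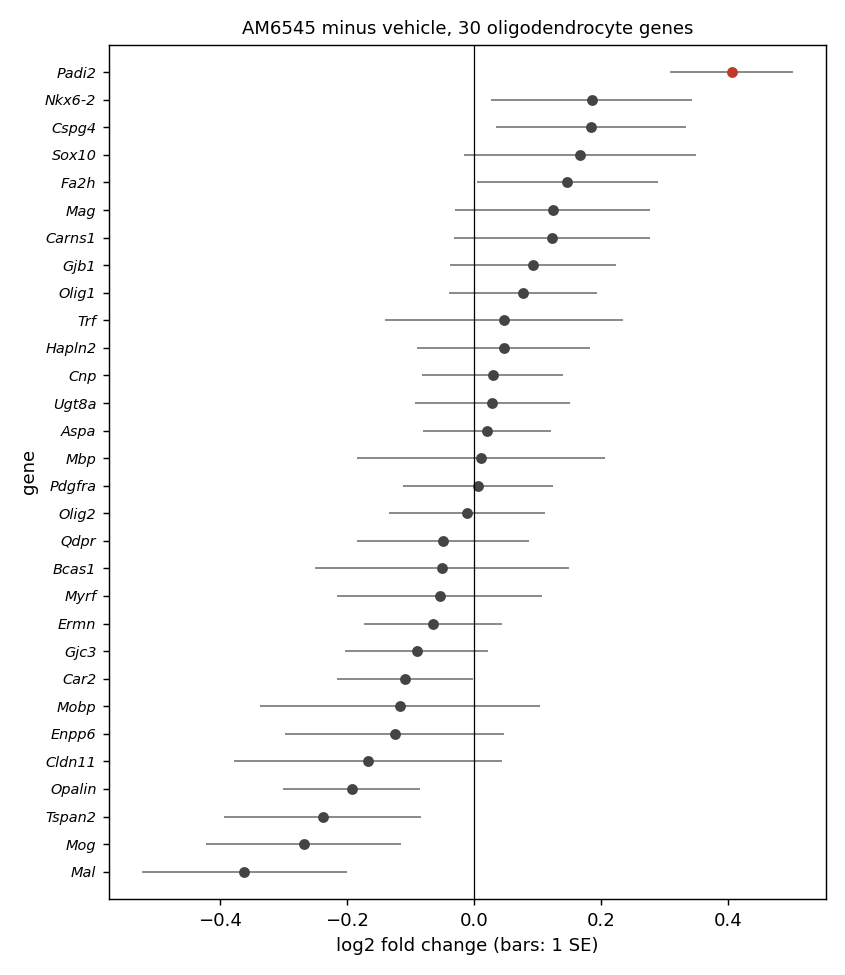
Log2 fold change, AM6545 minus vehicle, for the 30 oligodendrocyte genes in order of size; points are estimates, bars 1 standard error, and Padi2 is in red. Padi2 stands at 0.41, the next highest gene, Nkx6-2, at 0.19, and Mal lowest at -0.36.

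Mbp, the member with the most counts, was at 8596, 7429, 9437 and 10761 CPM in AM6545 samples A, B, C and E and at 12474, 8657, 5746, 9958 and 8096 CPM in vehicle samples A to E. The vehicle samples alone spanned the whole range of the treated ones, and the log2 fold change was 0.01 (SE 0.19). Mobp, which encodes another basic protein of compact myelin, was at 2983, 2460, 3606 and 3955 CPM in AM6545 samples and at 5314, 3543, 2119, 3690 and 2950 CPM in vehicle samples. As for Mbp, vehicle A was the highest and vehicle C the lowest of the 9 samples. Mbp and Mobp together gave 70.5% to 76.7% of the counts of the 30 genes in a sample.

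Mog and Mag encode glycoproteins of the outermost and the innermost surface of the sheath. Mog was at 81.3, 67.5, 86.5 and 78.6 CPM in AM6545 samples and at 126, 89.8, 64.1, 101 and 91.3 CPM in vehicle samples, a log2 fold change of -0.27 (SE 0.15). Mag was at 268, 233, 282 and 292 CPM against 300.02, 268, 159, 276 and 230.04 CPM, a log2 fold change of 0.12 (SE 0.15). In both genes vehicle A was highest and vehicle C lowest, and the treated samples lay between them. Mal, a proteolipid of myelin membranes, was at 174, 148, 202 and 188 CPM in AM6545 samples and at 323, 230, 163, 218 and 212 CPM in vehicle samples. All treated samples but AM6545 B lay within the vehicle range, and the log2 fold change was -0.36 (SE 0.16; unadjusted p = 0.0414, edgeR quasi-likelihood adjusted p = 0.653). Left-out samples moved that p across 0.05 in 5 of 9 cases: it was no longer under it without AM6545 A, AM6545 B, vehicle A, vehicle B or vehicle D. With the title letter as a replicate block it was not under 0.05 either.

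Cnp, an enzyme that marks myelinating cells, was at 556, 588, 555 and 463 CPM in AM6545 samples and at 561, 556, 439, 548 and 543 CPM in vehicle samples. Its spread was small beside that of Mbp, with a within-group SD of 0.15 against 0.34 on the log2 scale. Other genes of the sheath had log2 fold changes from -0.24 for the tetraspanin Tspan2 to 0.05 for Hapln2, which organises matrix at the node of Ranvier. Between them stood the tight junction gene Cldn11 at -0.17, Opalin at -0.19, the cytoskeletal gene Ermn at -0.06 and Bcas1, a gene of early myelinating cells, at -0.05. Cldn11 was low, at 4.47 to 10.5 CPM in the vehicle samples. Counts of Cnp and Ermn are uncertain where they overlap Dnajc7 and Galnt5, with shared stretches of 157 and 240 bases in M21.

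The enzymes of myelin lipids differed by less than their spread. Ugt8a, which makes galactosylceramide, averaged 56.8 ± 7.87 CPM after AM6545 (SD, n = 4) and 55.6 ± 7.52 CPM after vehicle (SD, n = 5). Fa2h, which hydroxylates its fatty acids, was at 22.3 ± 2.86 against 20.1 ± 3.84 CPM, and Aspa, which releases acetate from N-acetylaspartate, at 34.9 ± 3.17 against 34.4 ± 3.01 CPM. Enpp6, a choline phosphodiesterase of newly formed oligodendrocytes, was at 12.2 ± 1.73 against 13.3 ± 3.34 CPM. Trf, the iron carrier transferrin, averaged 1057 ± 89.5 CPM after AM6545 (SD, n = 4) and 1023 ± 300.3 CPM after vehicle (SD, n = 5). Carbonic anhydrase 2 (Car2) had a log2 fold change of -0.11, Qdpr, which recycles tetrahydrobiopterin, -0.05, and Carns1, which makes carnosine, 0.12. The connexin genes Gjb1 and Gjc3, for gap junctions of these cells, stood at 0.09 and -0.09.

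Of the transcription factors of the lineage, Sox10, Olig2, Myrf and Nkx6-2 were measured at lower levels than Mog. Olig1 was above Mog, at 137 ± 12.7 CPM after AM6545 (SD, n = 4) and 130 ± 19.6 CPM after vehicle (SD, n = 5). Sox10 was at 19.2, 17.5, 15.1 and 12.9 CPM in AM6545 samples and at 13.1, 19.98, 12.9, 9.60 and 16.2 CPM in vehicle samples. Olig2 was at 24.8, 20.5, 21.8 and 16.2 CPM against 23.0, 22.7, 19.7, 19.8 and 19.6 CPM. Myrf, which switches on myelin genes, was at 7.70, 6.82, 7.38 and 8.94 CPM against 9.42, 9.59, 6.91, 5.75 and 8.38 CPM. The groups overlapped in each, and vehicle A and C were not the extreme samples of Sox10, Olig2 or Myrf. Log2 fold changes were 0.17 (SE 0.18) for Sox10, -0.01 (SE 0.12) for Olig2, -0.05 (SE 0.16) for Myrf, 0.08 (SE 0.12) for Olig1 and 0.19 (SE 0.16) for Nkx6-2. The M21 model of Nkx6-2 shares 248 bases with Inpp5a, so part of its count is uncertain.

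Of the precursor markers, Pdgfra, a receptor for platelet-derived growth factor, was at 22.2, 22.1, 23.9 and 28.2 CPM in AM6545 samples and at 27.3, 25.03, 19.4, 25.7 and 22.7 CPM in vehicle samples. Cspg4, which encodes NG2, was at 7.24, 6.40, 7.94 and 9.61 CPM against 6.64, 8.34, 5.89, 6.98 and 6.41 CPM. Their log2 fold changes were 0.01 (SE 0.12) and 0.18 (SE 0.15), and AM6545 E was the highest of the 9 samples in both. Cspg4 is also expressed by pericytes.

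**Figure D2:**
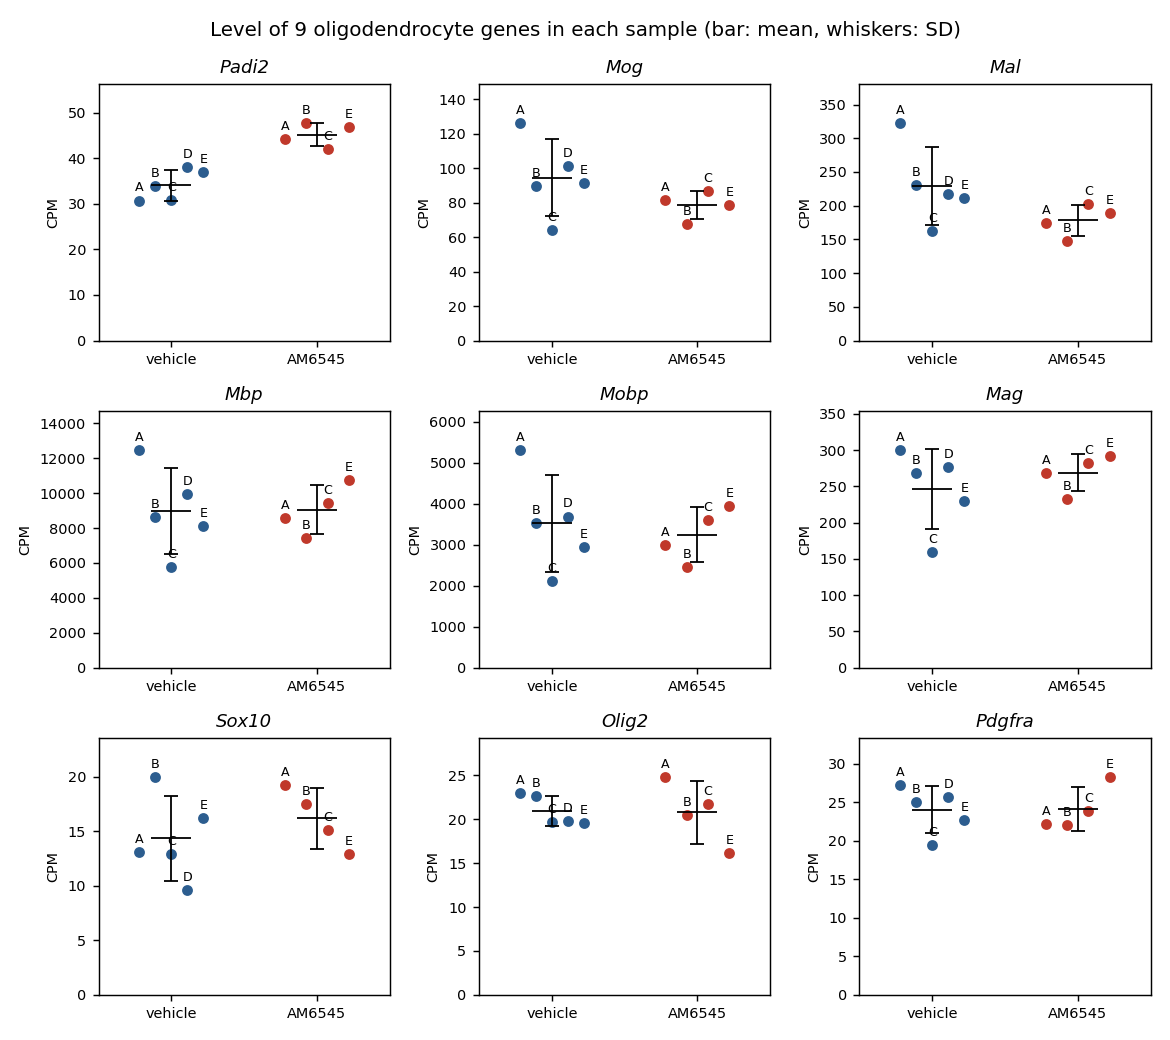
CPM of 9 of the genes in each sample, with 5 vehicle samples in blue and 4 AM6545 samples in red, lettered by title; the horizontal bar is the group mean and the whiskers 1 SD. Only for Padi2 do all treated samples (42.1 to 47.8 CPM) lie above all vehicle samples (30.7 to 38.0 CPM), and vehicle A is the highest and vehicle C the lowest vehicle sample for Mbp, Mobp, Mog, Mag and Mal.

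Levels per length compare genes only roughly, since the lengths are medians over annotated transcripts and not those of the transcripts expressed here. The median was 498 bases for Mobp and 813 bases for Trf, against 1934.5 bases for Mbp, so the order of genes depends on it. Divided by the median length of their coding transcripts in M21, vehicle levels ran from 0.844 CPM per kilobase for Cspg4 to 7074 for Mobp. Padi2, with a transcript of 4774 bases, had 7.14 CPM per kilobase in vehicle samples, close to Hapln2 at 7.66 and Fa2h at 8.08. Mog had 81.1, Mag 129, Trf 1258 and Mbp 4645 CPM per kilobase. On this scale the transcription factors ran from 2.30 for Myrf to 60.1 for Olig1, with Padi2 inside that range. Sox10, at 5.30, Olig2, at 8.28, and Nkx6-2, at 10.6, lay between them. Of the genes of myelin structure and adhesion, Hapln2 was just above Padi2 and Cldn11, at 3.99, below it.

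The members did not vary alike between samples. Of the 30 genes, 14 were highest of all 9 samples in vehicle A, or 46.7%, and 16 were lowest in vehicle C, or 53.3%; over all genes tested these shares were 17.9% and 15.4%. Among the 12 genes of myelin structure and adhesion, 10 were highest in vehicle A and 8 lowest in vehicle C. Of the 5 transcription factors 0 were highest in vehicle A and 1, Olig1, was lowest in vehicle C. Padi2 was lowest in vehicle A, at 30.7 CPM, with vehicle C close to it at 30.9 CPM. As Padi2 was picked for higher values after AM6545, a vehicle sample was likely to be its lowest, and this place is a description only.

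**Figure D3:**
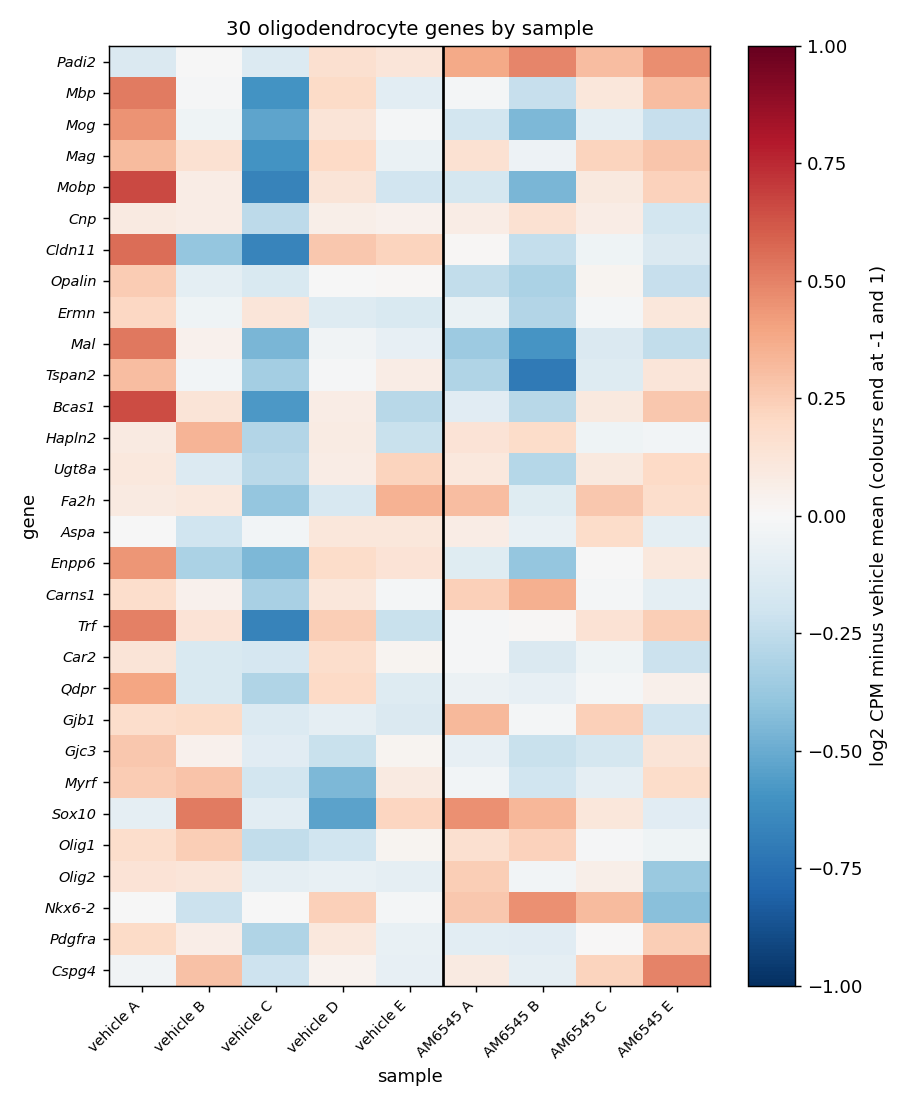
Log2 CPM minus the vehicle mean (prior count 2) for the 30 genes (rows) in the 9 samples (columns), red above and blue below the vehicle mean. The rows of Mbp, Mag, Mobp, Mal, Bcas1 and Trf are red in vehicle A and blue in vehicle C, while Padi2 is red in the 4 AM6545 columns.

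To ask which genes followed a myelin gene apart from treatment, each gene was fitted on the level of Mog, centred within each group. A slope of 1 means a change in proportion to Mog. Of the 28 members besides Mog and Padi2, 27 had a positive slope, with a median of 0.40, against 47.2% and a median of -0.03 over all genes. At an unadjusted p under 0.05 there were 13 of 28 with a positive slope (7.38% of all genes) and 0 with a negative one (4.88% of all genes). Adjusted over 14511 genes (edgeR quasi-likelihood F-test), 0 of them passed, as did 0% of all genes. The steepest were Mobp at 1.35 (SE 0.25, adjusted p = 0.185), Cldn11 at 1.22 (SE 0.29, adjusted p = 0.203), Bcas1 at 1.19 (SE 0.24, adjusted p = 0.185) and Mbp at 1.13 (SE 0.23, adjusted p = 0.185). Trf at 1.11, Mal at 0.98, Enpp6 at 0.96 and Mag at 0.94 were also near proportion, and Tspan2 (0.74), Qdpr (0.67), Ugt8a (0.49), Pdgfra (0.49) and Opalin (0.45) complete the 13.

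Transcription factors and several enzymes had shallower slopes. The 5 transcription factors ran from -0.19 for Sox10 to 0.32 for Myrf, with 0 at an unadjusted p under 0.05, and the connexins Gjb1 and Gjc3 were at 0.34 and 0.30. Cnp, at 0.28 (95% interval -0.17 to 0.73), Ermn, at 0.12 (-0.32 to 0.56), and Aspa, at 0.15 (-0.28 to 0.57), had intervals below proportion. For Ermn this rested on vehicle C: its slope was 0.69 (SE 0.28) without that sample and -0.16 without vehicle A. Padi2 had a slope of -0.01 on Mog, with a 95% interval of -0.44 to 0.42. Its within-group SD was 0.12 log2 units against 0.29 for Mog, and a gene picked for groups that stand apart tends to have a small spread, so a slope well below 1 was in part fixed by the choice and is given as a description. The interval lies below the lower bound of Mbp (0.63), Mobp (0.82), Mag (0.51), Mal (0.59), Cldn11 (0.61), Bcas1 (0.68), Trf (0.60) and Enpp6 (0.45); the differences between slopes were not tested. Without vehicle A the separation was lost: Padi2 was at 0.23 (SE 0.25), Mbp at 1.12 (SE 0.33), Mobp at 1.27 (SE 0.35) and Mal at 0.82 (SE 0.25), and ranges of 2 SE on each side overlapped between Padi2 and each of them. Padi2 was not alone in having an interval below 1: the same held, among others, for Cnp, Ermn, Aspa, Car2, Gjc3, Sox10, Olig1, Olig2 and Nkx6-2.

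Transcript length, here too the median of annotated transcripts in M21, was a feature the choice of genes did not use. The 13 members with a positive slope at an unadjusted p under 0.05 had a median transcript length of 1839 bases, the 16 others with a slope, Padi2 among them, 2511 bases and all genes tested 2254.5 bases. Spearman's rho between slope and length was -0.39 across 29 members and -0.11 across 14493 genes, as a description only, since genes of the same libraries are not independent.

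**Figure D4:**
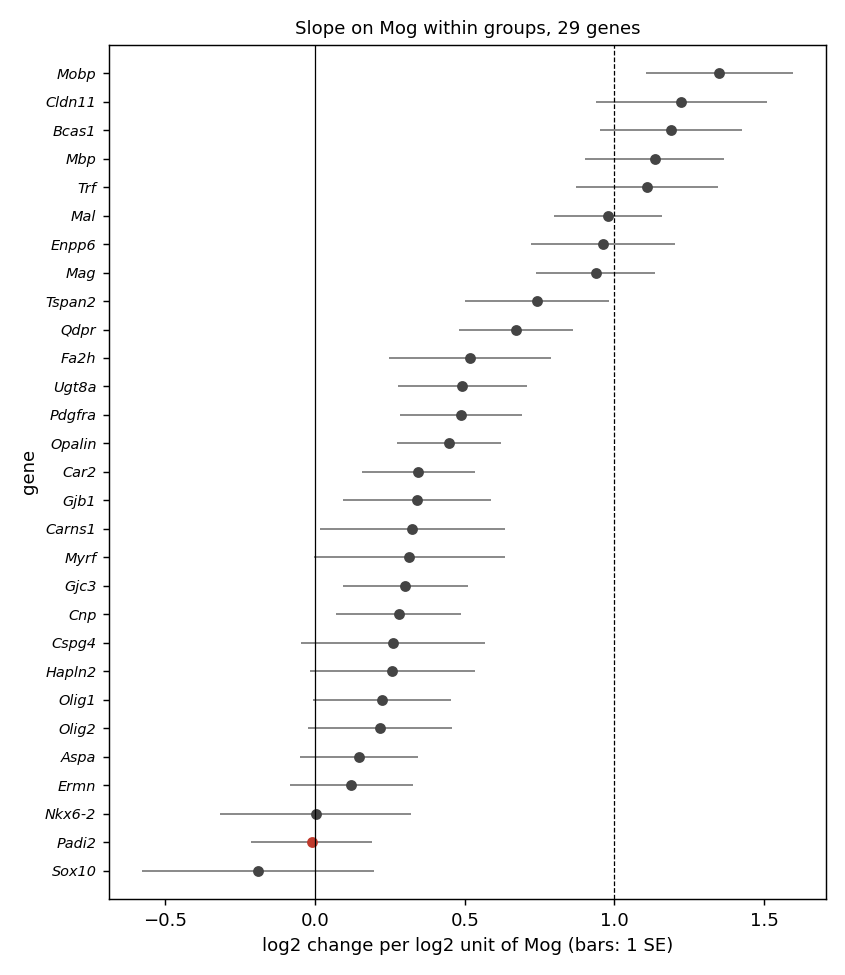
Slope of each of 29 genes on Mog within groups, in log2 units per log2 unit, with bars of 1 standard error; the dashed line at 1 marks change in proportion to Mog and Padi2 is in red. Mobp is highest at 1.35, Padi2 stands at -0.01 and Sox10 is lowest at -0.19.

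The p-values of these slopes depended on vehicle A and vehicle C. With each sample left out in turn, 9 of the 13 members kept an unadjusted p under 0.05 in every fit: Mbp, Mag, Mobp, Cldn11, Mal, Tspan2, Bcas1, Enpp6 and Trf. In single fits 4.67% to 8.4% of all genes had a positive slope at that p. The share of all genes that kept it in every fit was not computed. Without both vehicle A and vehicle C, an alternative chosen after seeing the data, 0 of 28 members had a positive slope at that p (1.41% of all genes). The median slope of the members in that fit was 0.55, with Mobp at 1.37 (SE 0.70) and Mbp at 1.07 (SE 0.65). The slope of Padi2 was 0.23 without vehicle A, -0.43 without vehicle C and -0.24 (SE 0.45) without both. Markers of other cells moved with Mog too: 9 of 10 microglial, 9 of 10 choroid plexus and 4 of 12 astrocyte genes had a positive slope at an unadjusted p under 0.05. The same held for 1 of 9 endothelial and 0 of 12 neuronal genes, and for 7.38% of all genes. Median slopes were 0.76 for microglial, 4.04 for choroid plexus, 0.44 for astrocyte, 0.41 for endothelial and -0.30 for neuronal genes, against 0.40 for the 28 members. A slope near 1 on Mog was thus not particular to oligodendrocyte genes. Summed microglial genes were at 1167 CPM in vehicle A and 706 CPM in vehicle C; vehicle B, D and E had 867 to 1118 CPM and AM6545 samples 974 to 1239 CPM. Summed choroid plexus genes were at 9635 CPM in vehicle A and 319 CPM in vehicle C, from 1105 to 11036 CPM in vehicle B, D and E and from 463 to 3586 CPM in AM6545 samples; no marker of either list was at 0 in all samples, and 1, Aqp1 of choroid plexus, was at 0 in at least 1 vehicle sample. Neuronal genes summed to 7652 CPM in vehicle A, their lowest, and 10194 CPM in vehicle C, their highest. The part of these cells, and of the low total count of vehicle A, in the slopes was not tested.

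**Figure D5:**
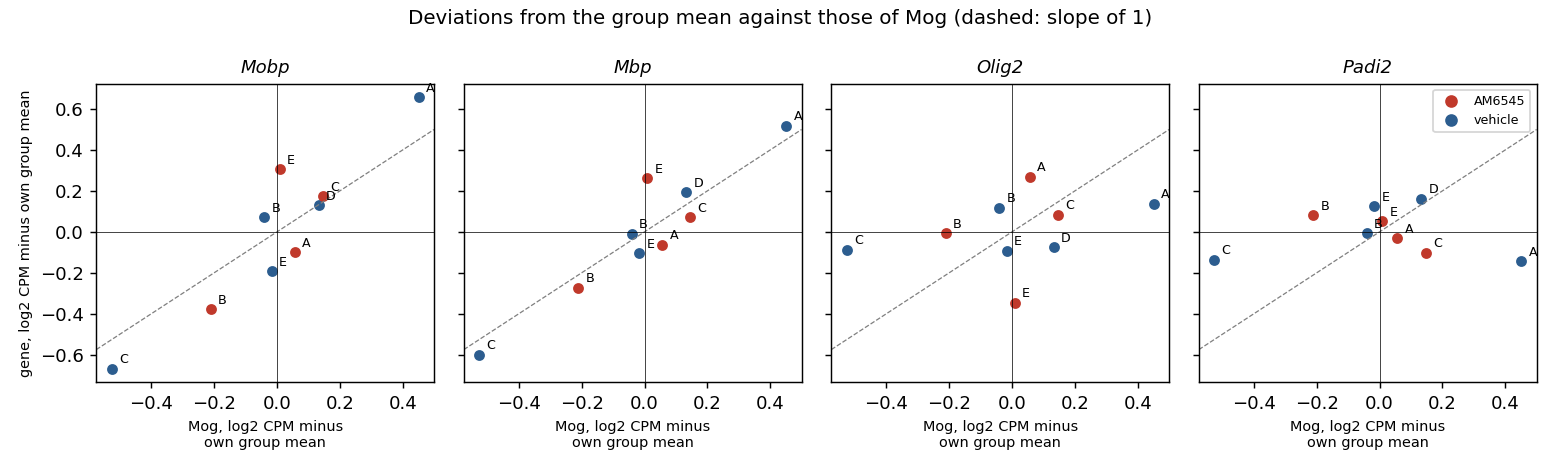
Deviation of Mobp, Mbp, Olig2 and Padi2 from their own group mean (log2 CPM, vertical) against that of Mog (horizontal) in 5 vehicle (blue) and 4 AM6545 (red) samples, lettered by title; the dashed line has a slope of 1. Mobp and Mbp lie along the line, with vehicle A and C at its ends, while Padi2 is below its group mean in both vehicle A and vehicle C.

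The reverse fit, on Padi2 centred within groups, had less to work with, since the within-group SD of Padi2 was 0.12 log2 units against 0.29 for Mog. Of the 28 members, 14 had a positive and 14 a negative slope on Padi2, with a median of -0.03. There were 0 positive (1.19% of all genes) and 0 negative (1.43% of all genes) at an unadjusted p under 0.05. After adjustment (edgeR) 0 members and 0% of all genes passed, a count of all genes that was 165 without vehicle A. Without vehicle A 1 of 28 members had a positive slope at an unadjusted p under 0.05, below the share over all genes in that fit (5.8%). Without vehicle C 4 of 28 had a negative one (1.2% of all genes). Standard errors of the members' slopes ran from 0.45 for Ermn to 1.05 for Mobp, so these slopes were measured less precisely than those on Mog. Of other cells, 9 of 9 endothelial and 10 of 10 choroid plexus genes had a positive slope, with medians of 1.85 and 3.90. So did 7 of 12 astrocyte, 6 of 10 microglial and 6 of 12 neuronal genes, and 6850 of all 14511 genes. At an unadjusted p under 0.05 there were 1 endothelial and 0 choroid plexus genes (1.19% of all genes). The part of these cells in the values of Padi2 was not tested. The genes most like Padi2 by the smallest p of a positive slope over 9 samples were Dok1, Ehd2, Isyna1, Morn1 and Plcd1, with slopes of 2.33 to 5.004 and adjusted p of 0.989 (edgeR). These slopes were steeper than proportion to Padi2, and Dok1 and Ehd2 were low, at means of 1.08 and 1.06 CPM. The genes most like Mog by the same measure were Rps27rt, Mobp, Mal, Cdr2 and Cd82, each at an adjusted p of 0.185.

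The level of Padi2 was also set against that of the other genes. Over the 29 others the mean level was 6.20, 6.05, 6.22 and 6.19 log2 CPM in AM6545 samples A, B, C and E and 6.43, 6.21, 5.86, 6.20 and 6.16 log2 CPM in vehicle samples A to E. The group means differed by -0.01 log2 units, less than the spread between samples, and the vehicle samples enclosed the treated ones. Relative to that mean, Padi2 stood at -0.73, -0.46, -0.82 and -0.64 log2 units in AM6545 samples and at -1.49, -1.12, -0.91, -0.94 and -0.95 in vehicle samples. The ratio of Padi2 CPM to Mog CPM was 0.486 to 0.708 in AM6545 samples and 0.243 to 0.482 in vehicle samples, which did not overlap. The ratio to Mbp did overlap: Padi2 CPM was 0.435% to 0.643% of Mbp CPM in AM6545 samples and 0.246% to 0.537% in vehicle samples, with vehicle C above AM6545 A, C and E. With the mean level of 25 further oligodendrocyte genes held as a covariate, the log2 fold change of Padi2 was 0.41 (SE 0.10), as without it; with this covariate it ran from 0.31 without vehicle C to 0.45 without vehicle D. These values use the contrast that picked Padi2 and carry no test.

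The 25 further genes of oligodendrocytes, none of them among the 30, had medians near those of the 30. All 25 were tested for treatment: 11 were higher and 14 lower, with a median log2 fold change of -0.03 and 0 at an unadjusted p under 0.05. On Mog, 12 of 25 had a positive slope at an unadjusted p under 0.05 (7.38% of all genes) and the median slope was 0.45. Of the 25, 4 are named after their values were seen. Lpar1, a lysophosphatidic acid receptor, had a slope on Mog of 1.15 and the lipocalin Apod one of 1.32, while Anln, at -0.39, and the tubulin-binding gene Tppp, at -0.39, had negative slopes with an unadjusted p over 0.05. Of 12 further precursor genes, with Gpr17 also among the 25, 8 were higher and 4 lower in AM6545 samples, with a median of 0.05. Of 19 genes of cholesterol synthesis, on which myelin draws, 12 were higher and 7 lower, with a median of 0.05. None of these 3 lists had a gene at an unadjusted p under 0.05 for treatment (3.03% of all genes higher and 4.18% lower). Among markers of other cells, Tmem119 of microglia (log2 fold change 0.33) and the receptor subunit gene Grin1 of neurons (0.41) were higher. Both had an unadjusted p under 0.05, as did 3.03% of all genes in that direction. Slco1a4 (-0.89) and Tek (-0.92) of endothelial cells and Folr1 (-1.93) and Sostdc1 (-1.47) of choroid plexus were lower at that level (4.18% of all genes). Tek was low, at 5 to 44 counts per sample. Each of these named genes had an adjusted p of 0.653 by edgeR's quasi-likelihood test, and their part in the values of Padi2 was not tested. In their whole lists, 7 of 10 microglial and 10 of 12 neuronal genes were higher in AM6545 samples, against 6996 of all 14512 genes tested. The same held for 3 of 9 endothelial and 0 of 10 choroid plexus genes tested.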

How the data were processed

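Processed data for 9 hippocampal synaptoneurosome samples were used. Values in the deposited table are estimated counts, 1 row a gene, as the numbers themselves show (not negative, not scaled to 1 total and in part not whole); Salmon 1.3 and DESeq2 1.30 are named with the builds GRCm39 and mm10, per the submitters' processing notes, with no role given. Filters, annotation release and strand setting are not given in the sources used here, so reads of overlapping genes on opposite strands may not be separated. Extraction used a column kit and library preparation a low-input SMARTer kit, per the labels' protocols.

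The estimated counts were rounded to whole numbers. Symbols were matched by identifier without version to GENCODE M21 (22155 of 22255 rows); 22244 identifiers are not in M21 with the same version, so no coordinates of rows are given. Genes were kept by edgeR's filterByExpr and scaled by TMM, and tested by the quasi-likelihood F-test (edgeR 4.0.16, R 4.3.3) with Benjamini-Hochberg adjustment over all genes tested at 0.05. Standard errors are the absolute log2 fold change over the square root of F. Slopes were fitted with group as a covariate on log2 CPM (prior count 2) of Mog or Padi2 minus the group mean; that gene was left out. Both tests were tried on simulated data. Shared stretches between transcripts were found with blastn 2.17.0 (at least 98% identity over 150 bases). Samples differed by more than sampling noise in all 36 pairs (smallest chi-square per degree of freedom 10.0). Same-lettered samples of the 2 groups deviated together with correlations of -0.02, 0.04, 0.34 and -0.02 (letters A, B, C and E), so letters were not taken as pairs.

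The members and all gene lists were chosen with earlier results of these data known. Named genes are the 30 members, values by sample being given for those that mark a role and for any at an unadjusted p under 0.05, the 5 genes most like Padi2 and Mog, and up to 4 genes of each other list at an unadjusted p under 0.05 for treatment. Among those named outside this rule are Lpar1, Apod, Anln and Tppp, picked after their values were seen. Alternatives were other size factors and count filters, DESeq2 1.42.0, limma-voom (limma 3.58.1), the title letter as a block, an oligodendrocyte level as covariate and each sample left out.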

Additional observations from a re-analysis of the deposited data

Results flagged for a closer look

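In each of 60 groups of values (30 genes, 2 groups), the distance of the highest or lowest sample from its neighbour was divided by the whole range and compared with Dixon's 95% critical value. Only 1 group passed, where chance gives about 3. It was Cnp, for which vehicle C stood at 439 CPM and vehicle A, B, D and E at 543 to 561 CPM, a ratio of 0.85. Vehicle C was also the lowest of the 9 samples for 16 of the 30 genes.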

How the results depend on the processing

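The log2 fold change of Padi2 (no test) ran from 0.34 to 0.45 over other scalings, filters, tests and left-out samples, less than 1 within-group SD from 0.41, and was 0.32 without both vehicle A and C, which was chosen after seeing the data; with the title letter as a replicate block it was 0.45. No other member's difference between groups moved by more than 1 SD in 522 recomputed values. Genes past the adjusted threshold for treatment numbered 0 to 1 with a sample left out; the 1 was Gm14308, without AM6545 A. Members lower at an unadjusted p under 0.05 (1 over all samples) numbered 0 with the replicate block and 2 with limma-voom sample weights. They numbered 2 with the oligodendrocyte covariate, 2 without both vehicle A and C, and 0 to 2 with a sample left out. Members higher numbered 0 to 1, the 1 being Nkx6-2 without AM6545 E. All genes at that p, in either direction, numbered 1047 over all samples, 759 with the block, 1823 with the weights and 1249 with the covariate. For all genes the number was 460 without both vehicle A and C and 496 to 1848 with a sample left out. On Mog, genes past the adjusted threshold numbered 0 to 19 with a sample left out, 19 without AM6545 C (0 of them members) and 4 without AM6545 E (1 of them a member). Members with a positive slope on Mog at an unadjusted p under 0.05 numbered 13 in the fit of all samples, 10 with total counts, 11 to 14 with a sample left out and 0 without both vehicle A and C. The shares of all genes in these fits were 7.38%, 5.41%, 4.67% to 8.4% and 1.41%. The slope of Padi2 on Mog ran from -0.43 to 0.23 with a sample left out and was -0.24 without both. On Padi2, genes past the adjusted threshold numbered 0 to 165 with a sample left out, the 165 being without vehicle A. They numbered 5 without both vehicle A and C. Members with a positive slope on Padi2 at an unadjusted p under 0.05 numbered 0 to 1 with a sample left out. The 1 was without vehicle A (5.8% of all genes in that fit). Members with a negative slope at that p numbered 0 to 4, the 4 without vehicle C (1.2% of all genes in that fit). The causes of these shifts were not tested. The counts of low members, such as Cldn11 and Carns1 at 80 to 212 per sample, limit their precision.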
